A study of Mus musculus with 5 samples.

Results

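The genes described here are 8 components of the phosphoinositide 3-kinase (PI3K) and Akt signalling pathway: Eras, Tcl1, Akt1, Akt2, Pik3ca, Pik3r1, Foxo1 and Foxo3. They were chosen by name, and each had 1 probe among the 16032 genes that the array's annotation named. The Foxo3 probe carried the older symbol Foxo3a. RNA came from mouse embryonic stem (ES) cells of the 129 strain, male, that carry Akt-Mer, a myristoylated Akt fused to a receptor domain, and all groups share this transgene. The drug 4-hydroxytamoxifen (4OHT), used at 1 µM, switches the fusion kinase on. Of the 5 arrays, 2 were Akt-spheres (1 from line 21 and 1 from line 42), grown on OP9 stromal cells with 4OHT and described in the labels as like primordial germ cells. Another 3 were ES-type cultures of line 21: ES cells with 4OHT, ES-like cells that had reverted from line 21 spheres on embryonic fibroblast feeders, and ES cells without 4OHT. The reverted cells are labelled as derived by transient 4OHT, and their dose at harvest is not given. Line 42 is represented by its spheres only.

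PI3K turns a membrane lipid into a docking site that recruits Akt, and kinases at the membrane then activate it. Active Akt favours growth and survival, and it holds FoxO transcription factors out of the nucleus. Mouse ES cells express Eras, a Ras protein that is active without a growth factor and stimulates PI3K, and Tcl1, which binds Akt and enhances its activity. Both are known for promoting the proliferation of mouse ES cells.

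Eras and Tcl1 had the widest spans of the 8 genes over the 5 arrays, and their promoter windows are shown for that reason. Each window runs from 250 bases before to 50 after the start of the gene, 5′ to 3′ on the gene's strand, and was taken from RefSeq for GRCm38.p6. Capitals mark the GC box, searched as GGGCGG on both strands. Eras lies on the minus strand (chrX:7928558-7928857), and so does Tcl1 (chr12:105222688-105222987).
Eras: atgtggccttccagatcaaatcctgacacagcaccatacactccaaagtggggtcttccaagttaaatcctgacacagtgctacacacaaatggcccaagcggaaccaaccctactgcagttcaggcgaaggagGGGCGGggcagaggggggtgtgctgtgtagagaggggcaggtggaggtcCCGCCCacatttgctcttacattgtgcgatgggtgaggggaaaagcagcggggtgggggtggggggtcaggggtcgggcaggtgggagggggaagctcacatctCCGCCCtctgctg
Tcl1: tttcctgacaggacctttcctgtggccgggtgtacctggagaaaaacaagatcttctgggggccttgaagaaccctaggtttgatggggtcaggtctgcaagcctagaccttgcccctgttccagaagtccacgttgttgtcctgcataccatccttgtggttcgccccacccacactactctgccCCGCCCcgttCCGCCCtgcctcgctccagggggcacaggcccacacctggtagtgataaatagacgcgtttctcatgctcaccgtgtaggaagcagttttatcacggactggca
The Eras window held 3 GC boxes, which began 116 and 67 bases before and 37 bases after the start, and the Tcl1 window held 2, at 64 and 54 bases before it. A GC box stood in 35.7% of the 32851 windows of this length, so its presence is common. Neither window held the octamer ATGCAAAT (in 1.74% of windows), the FoxO motif GTAAACA (3.65%), CCAAT (37.4%), TATAAA (13.6%) or the E box CACGTG (7.15%), on either strand. CpG dinucleotides numbered 8 for Eras and 11 for Tcl1, against a median of 7 over all windows. All 8 genes matched the table, with 13 windows in all, and the FoxO motif occurred in 1 of them, 1 of the 2 windows of Akt1. These letter matches describe the windows and show no binding.

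Each array listed intensities for 20787 to 21479 of 22871 probes, on a linear scale with a common median of 50. The summed intensity of 13 ES cell markers was 14280 and 24150 on the line 21 and line 42 sphere arrays and 95110 to 110500 on the ES-type arrays, and limma called 6 of the 13 lower in spheres, where it called 1.47% of all genes lower. Nanog, one of these markers, did not follow the sum, at 5523 and 4003 in spheres against 3839 to 5480 in the ES-type cultures. Nor did Utf1, at 2821 and 7842 against 5125 to 7534, or Sall4, at 41.2 and 35.0 against 34.5 to 47.1. By 2-fold or more in both lines, 8 of the 13 were lower and 0 higher, where 5.21% of all genes were lower. Dppa5a was the largest part of the ES-type sums, at 49687 to 58362, and read 1014 and 6732 in spheres. The sum of 10 germ cell markers was 6184 and 14700 in spheres and 4908 to 8320 in the ES-type cultures. Dppa3 alone read 9198 in line 42 spheres, and the sum of the other 9 was 5961 and 5499 in spheres against 4736 to 6694. Markers of OP9 stroma and fibroblasts (18 genes, of which 17 had a value on both sphere arrays) summed to 1404 and 546.7 in spheres and to 1350 to 2568 in the ES-type cultures, with members that went both ways. Acta2 read 80.7 and 62.4 in spheres against 415 to 606 in the ES-type cultures, and Thy1 read 24.8 and 16.1 against 230.1 to 464. Mgp read 328 and 10.1 in spheres against 4.43 to 5.21, and Cxcl12 read 109 and 8.21 against 12.4 to 48.9, so that both were highest in line 21 spheres. Adipocyte markers summed to 741.7 and 542.3 in spheres against 266.7 to 528 in the ES-type cultures. Fabp4 among them read 183 and 143 in spheres against 4.63 to 6.07, whereas Cebpa read 176 and 133 against 171 to 231. In these bulk samples, fewer cells of a type and less RNA per cell cannot be told apart.

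Eras fell in spheres. The probe read 57.9 in line 21 spheres and 49.2 in line 42 spheres, against 1189 in ES cells with 4OHT, 1284 in reverted cells and 2189 in ES cells without 4OHT. Both sphere arrays lay far below all 3 ES-type arrays, and the sphere lines differed from each other by 1.22-fold. Over the 2 sphere and 3 ES-type arrays, Eras was 27.4-fold lower in spheres (log2 -4.78, SE 0.36, 95% interval -5.67 to -3.88, limma adjusted p = 0.00787). This was the 16th largest difference among 10589 genes tested. limma called 258 of those genes, 2.44%, with 1.47% lower and 0.963% higher in spheres. Of the 7 pathway components that entered the comparison, Eras was the 1 called. When ES cells without 4OHT were left out, limma called 0 genes (1316 at an unadjusted p under 0.05), and Eras stood at log2 -4.46 with a limma adjusted p of 0.0543. The fall of Eras went together with the lower sum of ES cell markers given above, whose part in it was not tested.

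**Figure D1:**
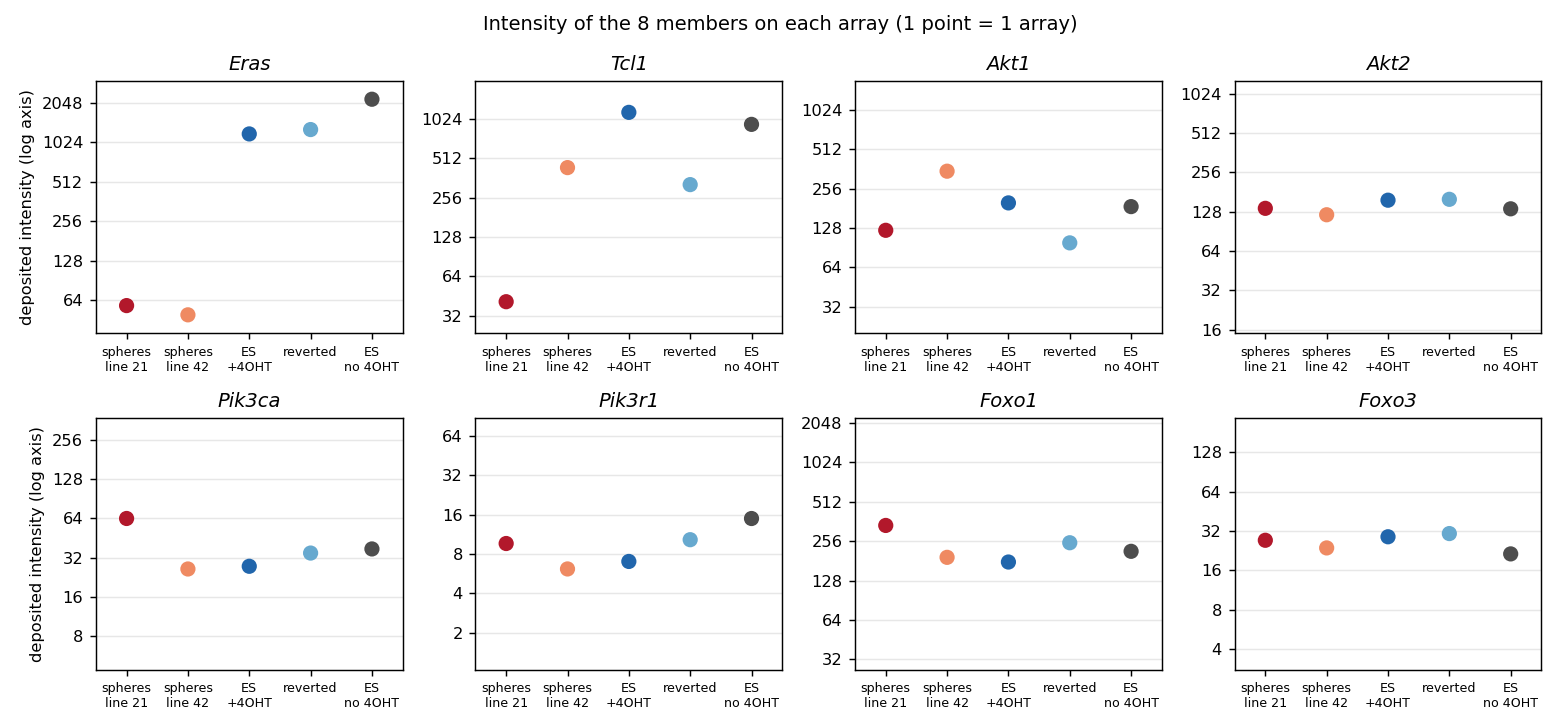
Deposited intensity of each of the 8 genes on the 5 arrays, 1 point per array, on a log axis of the same height in every panel. Eras sits at 57.9 and 49.2 in spheres and at 1189 to 2189 on the ES-type arrays, while Tcl1 is at 40.9 in line 21 spheres and at 433 in line 42 spheres.

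Within the ES-type cultures Eras also varied. ES cells with 4OHT read 1189 against 2189 without it, 2.02-fold lower (log2 -1.02). This comparison has 1 array a side and no replicate check. The difference dropped below 2-fold with a pseudocount of 16 (log2 -0.98), with no centring (-0.88) and with quantile normalization (-0.92). Reverted cells were 1.83-fold below ES cells without 4OHT (log2 -0.87) and stood close to ES cells with 4OHT. Set against single arrays, both sphere lines together were 42.4-fold lower than ES cells without 4OHT, 21.0-fold lower than ES cells with 4OHT and 23.2-fold lower than reverted cells. Eras was at least 2-fold lower in both lines each time. The 3 comparisons share the sphere arrays.

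Tcl1 was low in line 21 spheres and less so in line 42 spheres. The probe read 40.9 in line 21 spheres and 433 in line 42 spheres, against 1146 in ES cells with 4OHT, 321 in reverted cells and 928 in ES cells without 4OHT. Line 42 spheres thus lay above reverted cells, and the groups overlapped. The mean difference between spheres and the ES-type arrays was log2 -2.37 (SE 1.04, 95% interval -4.93 to 0.18, limma adjusted p = 0.294), which did not pass. It was log2 -4.03 without line 42 spheres and -0.71 without line 21 spheres, with limma adjusted p-values of 0.0962 and 0.709. With 1 sphere array left, the spread behind such p-values comes from the 3 ES-type arrays alone, and the lone sphere array is assumed to vary as they do.

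Between the sphere lines Tcl1 was 10.0-fold higher in line 42 than in line 21 (log2 3.32), with 1 array each. It ranked 67th by size among 9954 genes compared there, of which 783, 7.87%, were higher by 2-fold or more and 7.81% lower by as much in line 42 (15.7% either way). Reverted cells, which descend from line 21 spheres, read 321 where those spheres read 40.9. They were 3.09-fold lower than ES cells without 4OHT (log2 -1.63), in a comparison where 6.34% of 9939 genes were at least 2-fold lower. With 4OHT, ES cells read 1146 against 928 without it (log2 0.17). Tcl1 and Eras therefore differed in their order over the arrays: line 42 spheres held the lowest Eras value, whereas reverted cells and line 21 spheres held the lowest Tcl1 values.

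Akt1, the isoform needed for normal body growth, read 123 in line 21 spheres and 348 in line 42 spheres, against 199 in ES cells with 4OHT, 98.6 in reverted cells and 187 in ES cells without 4OHT. The ES-type values lay between or below those of the sphere lines. The difference of spheres from the 3 ES-type arrays was log2 0.43 (SE 0.53, 95% interval -0.87 to 1.72, limma adjusted p = 0.730), and it was -0.29 without line 42 spheres. Line 42 spheres were 2.71-fold above line 21 spheres (log2 1.44). Reverted cells were 2.02-fold below ES cells without 4OHT (log2 -1.01), a difference under 2-fold with a pseudocount of 16 (-0.90), with no centring (-0.91) and with quantile normalization (-0.95). ES cells with and without 4OHT differed in Akt1 by log2 -0.04. Whether this probe also reads the Akt-Mer transgene was not tested, since the probe's sequence was not used here.

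Akt2, the isoform known for its role in insulin-driven glucose uptake, hardly varied. It read 136 and 121 in the spheres of lines 21 and 42, against 157 in ES cells with 4OHT, 159 in reverted cells and 135 in ES cells without 4OHT. Its span of 0.39 log2 units over the arrays was smaller than that of most genes, with 7.99% of 10589 genes below it and a median of 0.96. The difference of spheres from the ES-type arrays was log2 -0.22 (SE 0.22, 95% interval -0.75 to 0.32, limma adjusted p = 0.659). That interval leaves room for a decrease of up to 0.75 log2 units in spheres.

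Of the PI3K subunits among the 8, Pik3r1 gave a dim signal on every array. Pik3ca, which encodes the catalytic subunit p110 alpha, read 63.8 in line 21 spheres and 26.2 in line 42 spheres, against 27.5 in ES cells with 4OHT, 34.7 in reverted cells and 37.3 in ES cells without 4OHT. Line 21 spheres were highest and line 42 spheres lowest, a 2.47-fold gap (log2 -1.30, line 42 minus line 21). The difference of spheres from the ES-type arrays was log2 0.31 (SE 0.43, limma adjusted p = 0.755), and -0.34 without line 21 spheres. Pik3r1, which encodes the regulatory subunit p85 alpha, read 9.64 and 6.16 in spheres, against 7.03 in ES cells with 4OHT, 10.3 in reverted cells and 15.0 in ES cells without 4OHT. None of these reached the 40th percentile of its array (28.6 to 29.3), so Pik3r1 entered no comparison and no direction is given for it.

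FoxO factors are the transcription factors that Akt restrains by phosphorylation. Foxo1 read 338 in line 21 spheres and 193 in line 42 spheres, against 178 in ES cells with 4OHT, 249 in reverted cells and 214 in ES cells without 4OHT. Line 21 spheres held the highest value, and line 42 spheres lay within the range of the ES-type cultures. The difference was log2 0.27 (SE 0.34, 95% interval -0.56 to 1.11, limma adjusted p = 0.731), with -0.16 without line 21 spheres. Foxo3 read 27.2 and 23.8 in spheres, against 28.9 in ES cells with 4OHT, 30.6 in reverted cells and 21.4 in ES cells without 4OHT. The groups overlapped, with a log2 difference of -0.06 (SE 0.24, limma adjusted p = 0.922). Foxo3 reached the 40th percentile on 1 array, that of reverted cells, and so entered only the comparisons that include it.

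**Figure D2:**
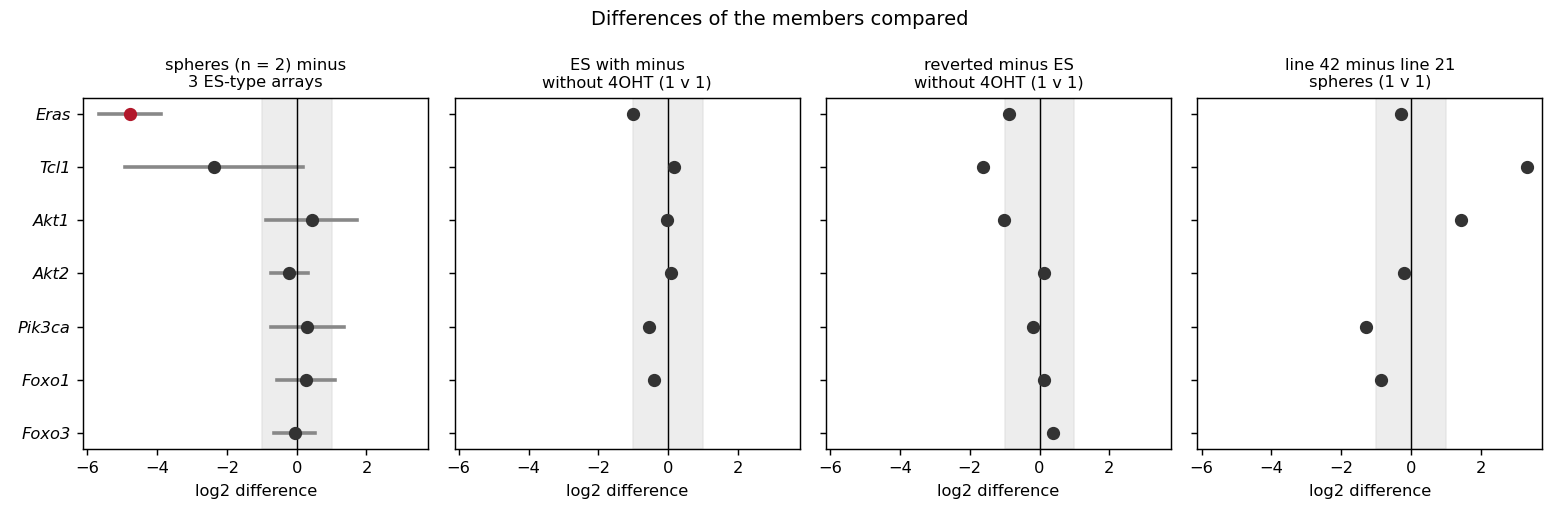
Log2 differences of the 7 compared genes in 4 comparisons, with 95% limma intervals as bars in the first panel and the span within 2-fold shaded. Only Eras, at log2 -4.78, passed limma's threshold in spheres against the ES-type arrays, and Tcl1 had the largest difference between the sphere lines, at log2 3.32.

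Against each ES-type culture alone, limma had 1 residual degree of freedom and called 0 genes, 0% of those tested. At an unadjusted p under 0.05 stood 964 of 10283 genes against ES cells without 4OHT, 1212 of 10407 against ES cells with 4OHT and 920 of 10328 against reverted cells. The adjusted p for Eras was 0.183, 0.152 and 0.220 in that order. By a difference of 2-fold or more in both lines, 10.5% of genes stood apart from ES cells without 4OHT (4.51% higher and 6.01% lower in spheres), and of 6 pathway components Eras and Tcl1 were lower. Against ES cells with 4OHT, 12.8% of genes did so (5.98% higher, 6.86% lower), and Eras and Tcl1 were again the lower ones of 6. Against reverted cells the share was 10.0% (4.21% higher, 5.81% lower), and Eras was lower among 7. Tcl1 was at log2 -2.89 in line 21 spheres and 0.43 in line 42 spheres relative to reverted cells. Over 10094 genes compared with all 3 cultures, 2.62% were at least 2-fold lower in both lines every time and 1.84% higher, and Eras was the 1 pathway component among them.

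The wider pathway was read from 10 role lists with 112 genes besides the 8, of which 102 had a probe and 76 were tested in spheres against the ES-type arrays. limma called 2 of the 76 lower and 0 higher, where it called 1.47% of all genes lower and 0.963% higher, while 5 were higher and 5 lower by 2-fold or more in both lines. The background for the 2-fold rule was 9.05% of genes, 3.83% higher and 5.21% lower. The median difference of the 76 was log2 -0.04, against 0.00 over all genes. Gab1, an adaptor that carries PI3K to growth factor receptors, read 137 and 252 in spheres, against 3605 in ES cells with 4OHT, 3946 in reverted cells and 3059 in ES cells without 4OHT. It fell 18.8-fold (log2 -4.23, SE 0.31, limma adjusted p = 0.00787), with an adjusted p of 0.0698 when ES cells without 4OHT were left out. Mras, a Ras-related GTPase, read 33.6 and 24.5 in spheres, against 792, 259.7 and 737 in the same 3 cultures. Its value in line 42 spheres lay below the 40th percentile of that array (28.6), so its difference is uncertain in size. Mras fell 17.9-fold (log2 -4.16, SE 0.54, limma adjusted p = 0.0287). That call was lost without any single array other than that of reverted cells. The limma adjusted p was 0.0951 without ES cells with 4OHT and 0.119 without ES cells without 4OHT. With 1 sphere array left, the spread comes from the 3 ES-type arrays alone. The Mras difference stayed at log2 -4.41 to -3.89 in the 4 fits that lost the call.

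By role, the Ras list had 6 genes tested, of which Eras and Mras were called. The other members of that list (Hras, Nras, Rras and Rras2) did not pass. Among 5 adaptors Gab1 was called, and the list's median was log2 -0.35. The 8 PI3K subunits, Pik3ca included, gave 0 calls and a median of 0.09, and none was 2-fold apart in both lines. The 6 tested genes listed under kinases that phosphorylate Akt also gave 0 calls (median 0.16). Besides kinases such as Pdpk1 and Mtor, they include Mapkap1 and Mlst8, which are subunits of mTOR complexes. With 0 calls too were the 6 genes of the Akt and Tcl1 list (-0.14), 9 phosphatases and inhibitors (0.13) and 14 Akt substrates and mTORC1 genes (0.18). The same held for 11 receptors and ligands (-0.24), 3 FoxO factors (0.27) and 16 FoxO targets (-0.30). The FoxO target list also holds Ccnd2, which FoxO represses, so its median is no measure of FoxO activity. Medians are over few genes and all lie within 0.4 log2 units of the median of all genes.

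**Figure D3:**
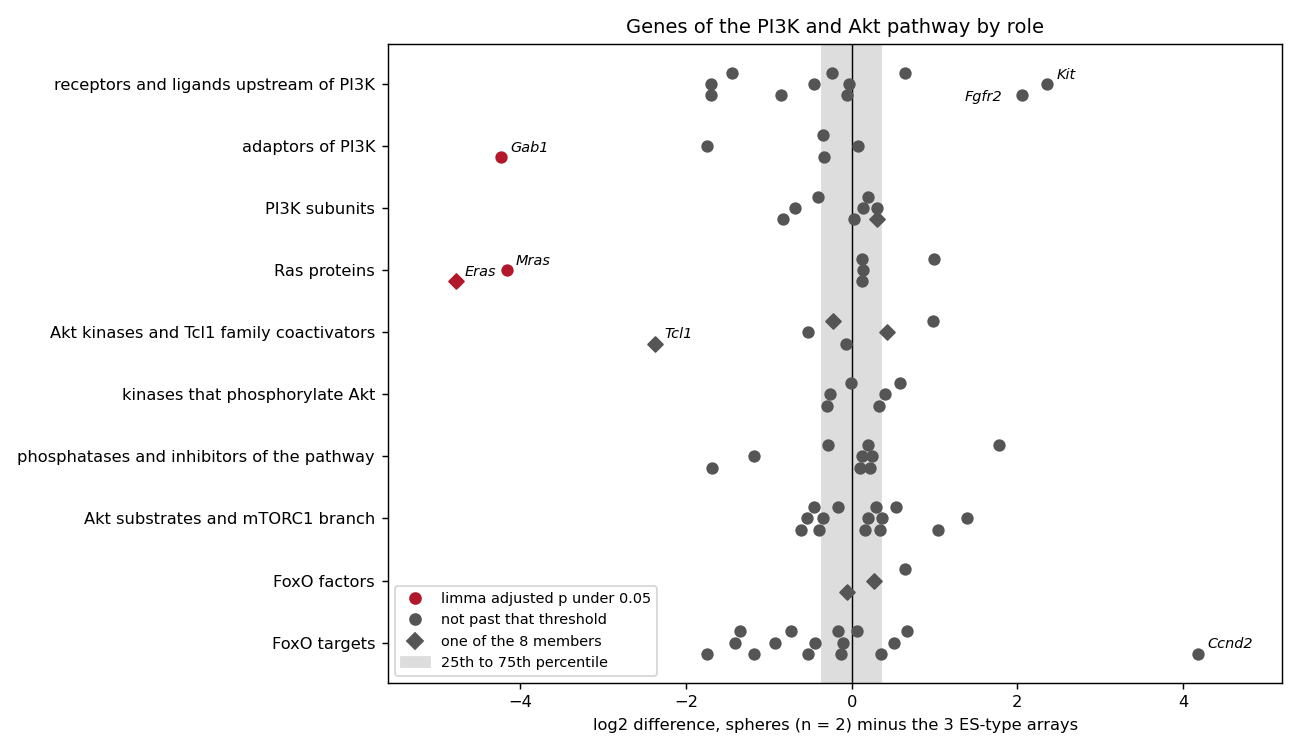
Log2 difference of each tested pathway gene between spheres and the 3 ES-type arrays, grouped by role, with diamonds for the 8 genes, red for a limma adjusted p under 0.05 and a grey band from the 25th to the 75th percentile of all genes tested. The 3 red points are Eras, Mras and Gab1, while the PI3K subunits and the genes listed under kinases that phosphorylate Akt lie within 1 log2 unit of 0.

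A pair of listed genes was at least 2-fold higher in both sphere lines against every ES-type array without passing limma. Ccnd2, a G1 cyclin repressed by FoxO, read 4300.3 and 945 in spheres, against 57.9 in ES cells with 4OHT, 214 in reverted cells and 108 in ES cells without 4OHT (log2 4.18, limma adjusted p = 0.0602). Fgfr2, a fibroblast growth factor receptor, read 88.85 and 142 in spheres, against 30.25, 15.5 and 38.4 in the same 3 cultures (log2 2.06, limma adjusted p = 0.0795). Its value in reverted cells lay below the 40th percentile of that array (28.6), so the difference is uncertain in size.

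Among the listed genes besides the 8, ES cells with 4OHT differed most from those without it at Kit, Igf2, Igf1, Cdkn1a, Trib3 and Trib2. Of 73 such genes, 4 were higher and 8 lower by 2-fold or more, where 4.95% of 9852 genes were apart by as much (2.56% higher and 2.40% lower). Of the 6 members compared, Eras was 2-fold lower and the rest lay within 2-fold. Kit, the receptor for stem cell factor, read 13.4 with 4OHT against 73.0 without it (log2 -2.49), and Igf1, a growth factor, read 12.03 against 38.3 (log2 -1.73). Igf2, another, read 705 against 143 (log2 2.16). Cdkn1a, the cell cycle inhibitor p21, read 692 against 199 (log2 1.66), and Trib3, a stress-induced pseudokinase that binds Akt, read 400.5 against 115 (log2 1.65). Its relative Trib2 read 33.9 against 87.8 (log2 -1.48). None of these has a replicate check. With 4OHT, Kit and Igf1 lay below the 40th percentile of that array (29.1) and entered through the array without 4OHT alone. Their differences are therefore uncertain in size.

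Reverted cells differed from ES cells without 4OHT at Tcl1 and Akt1, both lower, among the 7 members compared. Of 73 other listed genes, 7 were higher and 4 lower by 2-fold or more, where 11.5% of all genes were apart by as much (5.18% higher and 6.34% lower). Kit read 11.2 in reverted cells against 73.0 in ES cells without 4OHT (log2 -2.70), as low as in ES cells with 4OHT. Kit and Gsk3b, given below, lay under the 40th percentile of the reverted array (28.6), so their differences are uncertain in size. Cdkn1a read 863 against 199 (log2 2.01), Egfr, the epidermal growth factor receptor, 126 against 42.6 (log2 1.45), Mras 259.7 against 737 (log2 -1.60) and Gsk3b, an Akt substrate kinase, 12.25 against 32.6 (log2 -1.44).

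The sphere lines differed at 3 of the 6 members compared, with Tcl1 and Akt1 higher and Pik3ca lower in line 42. Of all genes 15.7% were apart by as much (7.87% higher and 7.81% lower), and of 73 other listed genes 4 were higher and 7 lower. Beside Tcl1, the largest gaps in the listed genes were those of Igf2 (299 in line 42 against 32.1 in line 21, log2 3.13), Tbc1d4, an Akt substrate of glucose transport (7.79 against 41.8, log2 -2.34), Ccnd2 (log2 -2.24), Inpp5d, a lipid phosphatase that counters PI3K (32.8 against 7.75, 3.72-fold higher), and Kit (66.5 against 213, log2 -1.72). In line 42, Pik3ca and Tbc1d4 lay below the 40th percentile of the array (28.6), as did Inpp5d in line 21 (29.2). The gaps of these genes are uncertain in size. Of 10 stromal and fibroblast markers compared between the lines, 5 were lower and 1 higher by 2-fold or more in line 42. Mgp and Cxcl12, given above, were among the lower ones, and Tagln was the higher one. The part of these markers in the gaps between the lines was not tested. Line and array cannot be told apart here, with 1 array for each line.

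Genes with a pattern most like that of Eras or Tcl1 were ranked by the root mean square difference of gene-centred log2 values over the 5 arrays, among 13574 genes with a value on all arrays. For Eras the nearest were Morc1 (0.36 log2 units), Acsbg3 (0.40), Nr0b1 (0.42), Tgm1 (0.44) and Thy1 (0.46), where the median gene stood at 2.38. Morc1 silences transposons in male germ cells, and Nr0b1 is a nuclear receptor of ES cells that the ES marker list also holds, while Thy1 stands on the stromal list. Morc1 read 32.3 and 33.9 in spheres against 827 to 1507 in the ES-type cultures, and Nr0b1 read 106 and 104 against 3105 to 4854. All 5 were low on both sphere arrays and high on the other 3. No filter on dim signal was used in this ranking. Acsbg3, Tgm1 and Thy1 lay below the 40th percentile on both sphere arrays (29.2 and 28.6), so their distances are uncertain in size.

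For Tcl1 the nearest were Tmem51 (0.38), Znf41-ps (0.41), Pramel13 (0.43), Calml4 (0.45) and Fabp3 (0.47), against a median of 1.71. Fabp3, a fatty acid carrier, read 239 in line 21 spheres, 5159 in line 42 spheres, 12069 in ES cells with 4OHT, 1672 in reverted cells and 7730 in ES cells without 4OHT. The 5 genes shared the order of Tcl1 in having their lowest value in line 21 spheres. There Tmem51, Pramel13 and Calml4 lay below the 40th percentile of the array (29.2), so their distances are also uncertain in size. Between Eras and Tcl1 the distance was 1.75, and Tcl1 ranked 503rd among the genes nearest to Eras. With 5 arrays, these distances describe the arrays and carry no test.

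**Figure D4:**
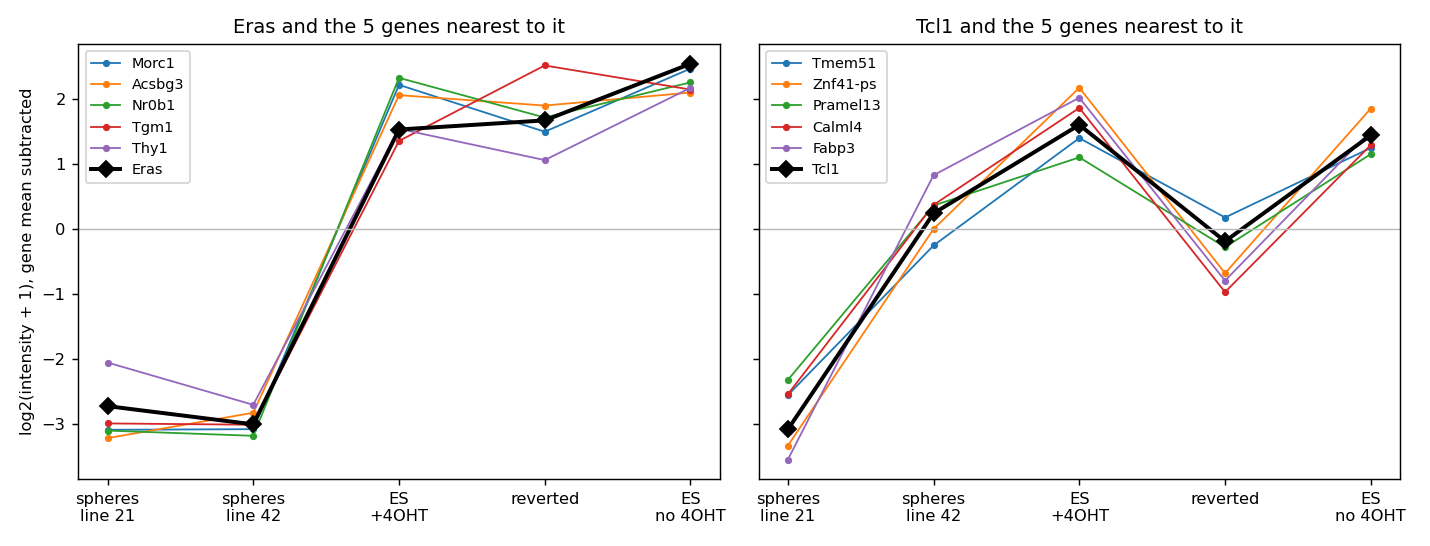
Log2(intensity + 1) with the gene's mean subtracted on the 5 arrays, for Eras (left) and Tcl1 (right) in black with the 5 genes nearest to each; lines only join the points of a gene. The Eras group is low on both sphere arrays, and the Tcl1 group is lowest in line 21 spheres and intermediate in line 42 spheres and reverted cells.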

How the data were processed

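RNA of 5 cultures was measured on 1-colour arrays. Per the labels' protocols, it was amplified to aminoallyl antisense RNA and coupled to dye by the array maker's instructions. The authors deposited linear intensity values for 22871 probes; the values have a median of 50 on each array, and the scanner, background correction, normalization and the rule for empty cells were not given in the sources used here. Empty cells were not filled in.

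Probe symbols from the platform annotation were updated with the RefSeq table of GRCm38.p6 (12239 symbols current, 3787 updated, 61 kept). The brightest probe by mean stood for a gene. Values were taken to log2(value + 1), with a pseudocount of 1, then shifted so that the median of the 18884 probes listed everywhere was equal on all arrays. Fold differences are on that scale, which understates changes at low signal. A gene entered a comparison with a value on every array compared and the 40th percentile reached on at least 1.

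limma 3.58.1 in R 4.3.3 (lmFit, eBayes, Benjamini-Hochberg adjustment over all genes, threshold 0.05) compared spheres with the 3 ES-type arrays (3 residual degrees of freedom; the spread includes differences between those conditions) and with each culture alone (1 degree; the single culture was taken to vary like the spheres). Other comparisons had 1 array a side and count genes at least 2-fold apart. The procedure was run on simulated data with known changes in spheres. Those data held no differences among the ES-type conditions, so the run does not show how reliable the calls here are. Each combination of line and condition has 1 array, so p-values measure no more than how these 5 arrays scatter. That scatter mixes line, condition and technical differences, and the number of arrays limits the precision.

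The 8 genes and the lists were chosen with earlier results of these data known. Named beside them are listed genes past limma's threshold, those 2-fold apart in both lines against each ES-type array, up to 6 with the largest difference in each comparison of single arrays, and the 5 genes nearest to any of the 8 that spans at least 2 log2 units. Alternatives were another pseudocount, no centring, quantile normalization, no filter and a 60th percentile filter, the mean over probes, eBayes with a trend, limma for single arrays and leaving out each array.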

Additional observations from a re-analysis of the deposited data

How the results depend on the processing

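Of 191 recomputed differences of the 8 genes that carry a limma test, 186 kept their direction and side of the threshold. That share overstates the check. In spheres against the ES-type arrays, 76 kept both, 4 changed direction and 1 lost its call. The rest compare spheres with each culture alone, where limma called no gene under any recomputed setting, so no side could differ. Taking the mean over probes could not alter a gene's own difference either, since each gene has 1 probe. A changed filter decides only whether a gene enters, and eBayes with a trend alters only the error. These settings could therefore change no sign in the counts given here. Without a test, 107 of 109 kept their sign; the others were Akt1 in ES cells with against without 4OHT, at 0.09 with no centring and 0.08 with quantile normalization. With 1 sphere line against a single culture, 7 of 37 changed sign: against reverted cells Tcl1 (0.43), Pik3ca (-0.39) and Foxo1 (-0.37) without line 21, against ES cells without 4OHT Pik3ca (-0.59) and Foxo1 (-0.25) without line 21 and Akt1 (-0.65) without line 42, and against ES cells with 4OHT Akt1 (-0.60) without line 42. Eras passed limma in 11 of 12 alternatives in spheres against the ES-type arrays (log2 -4.97 to -4.44, adjusted p 0.00602 to 0.0543) and missed it without ES cells without 4OHT (log2 -4.46). Leaving out 1 array gave log2 -4.97 to -4.46 for Eras. Differences that had not passed changed sign without line 21 spheres for Pik3ca (-0.34) and Foxo1 (-0.16), and without line 42 spheres for Akt1 (-0.29) and Foxo3 (0.06). The ranges without 1 array were -0.34 to 0.96 for Pik3ca, -0.16 to 0.70 for Foxo1, -0.29 to 1.15 for Akt1 and -0.18 to 0.06 for Foxo3.

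limma's 258 calls became 0 to 284 without 1 array: 148 without line 21 spheres, 98 without line 42 spheres, 32 without ES cells with 4OHT and 0 without ES cells without 4OHT (1316 at an unadjusted p under 0.05). With 1 sphere array, genes at least 2-fold apart numbered 1890 to 2266 against ES cells without 4OHT (1082 with both), 2132 to 2702 against ES cells with 4OHT (1336) and 1705 to 2284 against reverted cells (1035). For ES cells with against without 4OHT, 488 genes became 311 with a pseudocount of 16, 752 with no filter, 313 with the 60th percentile filter and 0 by limma with the spread of the spheres; limma also gave 0 for reverted cells against ES cells without 4OHT, where 1145 were 2-fold apart. With 1 sphere array the 2-fold rule asks for 1 line instead of both. A changed filter alters which genes enter, and a larger pseudocount shrinks log2 differences. Beyond these rules, the cause of the changes was not tested. No paired analysis was possible because line 42 has no ES-type array. Line 42 spheres were therefore compared with ES-type cultures of line 21 throughout. Signals below the 40th percentile, such as those of Pik3r1, limit what these arrays can show.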
